A study of Homo sapiens with 29 samples.

Results

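The genes described here are 32 genes of the Fanconi anemia pathway and of homologous recombination, listed by symbol, and the list was made with earlier results of these data known. In the array's annotation, 28 of the 32 had at least 1 probe set with their symbol alone, out of 19775 genes with such a probe set. BRCA2, FANCA, FANCD2 and RBBP8 were not analysed here. The 28 genes had 58 probe sets, and each gene is given by its brightest, the probe set of highest mean log2(intensity + 16) over all arrays. All 28 of these lay above the level minimum used for testing, which 12174 genes passed.

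RNA was measured on 29 Affymetrix arrays in BEAS-2B, a line of bronchial epithelium from a human donor made immortal by an adenovirus-SV40 hybrid whose large T antigen binds p53 and RB. Cultures received the solvent DMSO or N-OH-PhIP at 0.1, 0.5, 1, 5, 10, 50, 100, 500 or 1000 nM for 24 h, and every culture, controls included, held DMSO at 1%. N-OH-PhIP is the hydroxylated metabolite of PhIP, an amine of cooked meat and tobacco smoke. Each group held 3 arrays from separate cultures, except 0.5 nM, which held 2, and the stated aim was a threshold dose for the transcriptional response. The sample titles give 0.1 nM as the lowest dose and the protocol text gives 0.5 nM; the titles were used.

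The Fanconi pathway acts on DNA crosslinks and stalled replication forks. Its core complex is a ubiquitin ligase, in which FANCL is the catalytic subunit and UBE2T the ubiquitin-conjugating enzyme, and its substrate is the FANCD2-FANCI pair. Homologous recombination restores broken DNA from the sister copy: the MRE11-RAD50-NBN complex trims the ends, BRCA1-BARD1, PALB2 and BRCA2 prepare the trimmed strand, and RAD51C, RAD51D, XRCC2, XRCC3, RAD52 and the RAD54 proteins assist strand exchange. BLM, WRN, MUS81-EME1 and SLX4 process the joined molecules. Adducts of N-OH-PhIP are bulky lesions on guanine that can block replication forks.

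Promoter sequences are shown for 3 genes that fell at the high doses and 2 that rose, because the expression of these genes is often tied to the cell cycle through short promoter motifs. They were picked by hand and not by size of change, and each holds marked letters. Each is the 150 bases before the gene's start, written 5′ to 3′ on the gene's strand from RefSeq (GRCh38.p14). Capitals mark CCAAT, the letters bound by NF-Y, on either strand, and the E2F letters TTTCCCGC in FANCC.
FANCF (chr11:22625824-22625973, minus strand): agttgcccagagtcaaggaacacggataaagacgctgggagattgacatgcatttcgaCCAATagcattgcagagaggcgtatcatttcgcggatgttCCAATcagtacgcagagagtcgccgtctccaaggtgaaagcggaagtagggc
FANCC (chr9:95317710-95317859, minus strand): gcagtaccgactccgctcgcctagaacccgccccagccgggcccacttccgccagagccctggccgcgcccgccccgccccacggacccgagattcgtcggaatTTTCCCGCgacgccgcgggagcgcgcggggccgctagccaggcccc
BRIP1 (chr17:61863529-61863678, minus strand): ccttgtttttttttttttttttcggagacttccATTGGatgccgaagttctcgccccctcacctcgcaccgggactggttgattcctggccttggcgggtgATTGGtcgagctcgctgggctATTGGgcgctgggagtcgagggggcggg
RAD54L (chr1:46247538-46247687, plus strand): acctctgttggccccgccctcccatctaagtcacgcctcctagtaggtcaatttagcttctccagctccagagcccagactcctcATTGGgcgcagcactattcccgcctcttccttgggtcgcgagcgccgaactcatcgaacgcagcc
UBE2T (chr1:202341937-202342086, minus strand): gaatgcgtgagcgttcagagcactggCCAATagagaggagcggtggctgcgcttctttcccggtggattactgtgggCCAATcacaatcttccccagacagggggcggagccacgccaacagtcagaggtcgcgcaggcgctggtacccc

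In the full RefSeq windows, 250 bases before to 50 after the start, 24 of the 28 genes had a sequence. CCAAT was present in 10 of the 24 (41.7%), against 36.5% of 9987 promoters of tested genes and 35.7% of 27305 promoters in all. The E2F letters TTTGGCGC, TTTCCCGC, TTTGCCGC or TTTCGCGC, on either strand, were present in 2 of the 24, against 5.34% of promoters of tested genes and 3.33% of all. The CHR letters TTTGAA or TTCGAA were in 3 of the 24, against 11.1% and 16.6%. CCAAT was present in 5 of the 15 promoters of genes that fell at 1000 nM and in 5 of the 9 others. CCAAT thus stands in promoters of genes that fell (FANCF, BRIP1) and of genes that rose (RAD54L, UBE2T). The windows of RAD51D and RAD52, which fell, and of FANCB, which rose, held none of the CCAAT, E2F or CHR letters.

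Arrays of a group correlated at 0.980 to 0.998 over tested probe sets, and 500 nM replicates 2 and 3 were the pair with the lowest correlation. The log2 ratio of the 3′ to the 5′ control probe sets, averaged over actin and GAPDH, was 1.17 ± 0.04 (SD, n = 3) in DMSO, 0.93 ± 0.08 at 500 nM and 0.84 ± 0.02 at 1000 nM. Actin alone fell (2.20, 1.67 and 1.51), while GAPDH was at 0.14, 0.20 and 0.17. Of 12 epithelial markers 9 had a probe set and 8 passed the level minimum, with CDH1 at 6614 ± 88.9 in DMSO, EPCAM at 3923 ± 63.7 and KRT14 under the minimum. Summed epithelial marker intensities ran from 21863 to 22693 in DMSO, 26225 to 30298 at 500 nM and 25769 to 27450 at 1000 nM. Of the leukocyte, endothelial and fibroblast markers with a probe set, 1 of 8, 1 of 8 and 1 of 9 passed the minimum (CD14, ENG and COL1A1), while PTPRC, CD3E, PECAM1 and DCN did not. Summed leukocyte marker intensities were 134 to 141 in DMSO, 135 to 152 at 500 nM and 179 to 191 at 1000 nM, and fibroblast sums were 687 to 777, 1053 to 1217 and 872 to 965. The part of these shifts in the members' values was not tested. Fewer cells with a transcript and less of it per cell cannot be told apart in these bulk cultures.

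Most of the 28 genes fell at 1000 nM, and fewer than that fell at 500 nM. At 1000 nM against DMSO, 19 (67.9%) were lower and 3 (10.7%) higher at adjusted p 0.05 (limma), where 35.8% of all tested genes were lower and 27.3% higher. At 500 nM, 13 (46.4%) were lower and 3 higher, where 24.8% of all tested genes were lower and 25.2% higher. The median log2 change of the 28 was -0.33 at 1000 nM and -0.14 at 500 nM, beside -0.04 and 0.01 over all tested genes. Of the 28, 12 were lower at both doses, 6 at 1000 nM and not called at 500 nM, and 1, XRCC2, was called lower at 500 nM only. UBE2T and RAD54L were higher at both, FANCB was called higher at 1000 nM only, and RAD50 was higher at 500 nM and lower at 1000 nM. FANCG, FANCM, XRCC3, BLM and SLX4 were called at neither. Falls of at least 1.5-fold were called in 7 of the 28 at 1000 nM and 3 of the 28 at 500 nM, where 14.3% and 6.27% of all tested genes had them. With the 3′ to 5′ ratio as a covariate, 14 remained lower at 1000 nM and 8 at 500 nM. The shares of all tested genes called lower in that fit were not computed. EME1, FANCI, FANCE, RAD50 and MUS81 lost their call at 1000 nM, at log2 changes from -0.20 to 0.07, and FANCG was called higher (0.42, adjusted p 0.019). At 500 nM EME1 (-0.05), BRIP1 (0.01) and WRN (-0.17) lost theirs at smaller changes, while BRCA1 (-0.21, adjusted p 0.08) and XRCC2 (-0.51, adjusted p 0.34) lost theirs at changes beside -0.20 and -0.67 without the covariate. The part of the ratio in these changes was not tested further.

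**Figure D1:**
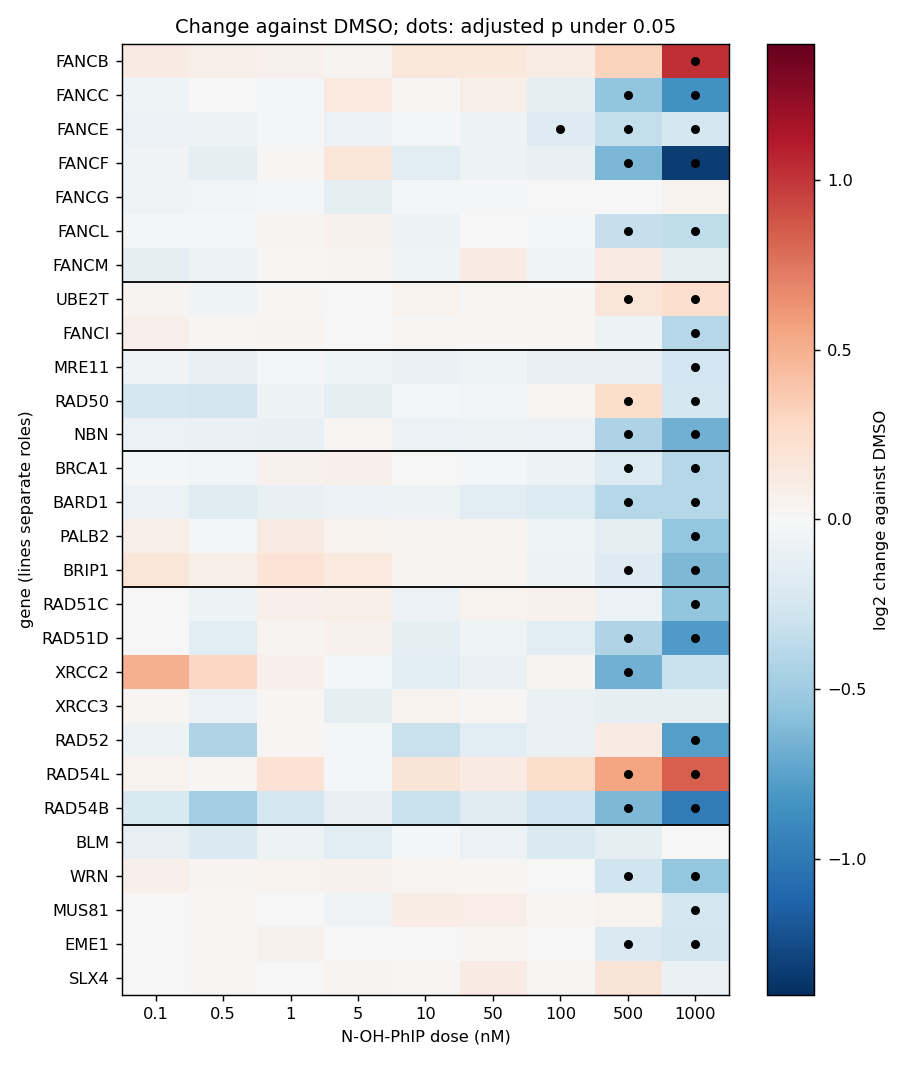
Log2 change against DMSO (colour) for each of the 28 genes (rows, grouped by role) at the 9 doses of N-OH-PhIP (columns, nM), with a dot where adjusted p is under 0.05. Dots lie in the 500 and 1000 nM columns, with 1 at 100 nM for FANCE, and the darkest blue is FANCF at 1000 nM.

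At 100 nM or less, FANCE at 100 nM was the 1 call among the 28 genes, where 5.33% of all tested genes were called at 1 or more of these 7 doses. At 100 nM 3.89% were called and 2.04% called lower. FANCE, a core complex subunit that contacts FANCD2, had intensities of 1579, 1537 and 1587 in DMSO and 1335, 1420 and 1391 at 100 nM. These did not overlap, and the log2 change was -0.18 ± 0.05 (SE, adjusted p 0.035). The call was lost without any 1 of the 3 DMSO arrays or without 100 nM replicate 1 or 3, at changes from -0.16 to -0.19 and adjusted p from 0.073 to 0.16. Over the 7 doses, log2 changes of the 28 genes ran from -0.47 (RAD54B at 0.5 nM, n = 2, adjusted p 0.068) to 0.50 (XRCC2 at 0.1 nM, adjusted p 0.43). The latter was called higher without DMSO replicate 1 (0.93, adjusted p 0.014). All doses share the 3 DMSO arrays, so a chance deviation there enters every comparison. Against the mean of the 0.1, 0.5 and 1 nM groups in place of DMSO, 19 genes were lower at 1000 nM and 15 at 500 nM. The shares of all tested genes lower than that reference were not computed.

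Fall and rise were also read within the treated arrays and across all groups. Over the 26 treated arrays, 17 of the 28 had a negative slope on log10 dose and 4 a positive one (limma, adjusted p 0.05), where 32.7% and 28.6% of tested genes did. Slopes and calls at 1000 nM differed for some genes. RAD50, lower at 1000 nM, had a positive slope (0.06 ± 0.02, adjusted p 0.043). RAD52 and MUS81, also lower there, had no called slope, and XRCC2, not called there, had a negative one. The steepest negative slope was that of FANCF, at -0.24 ± 0.05 log2 per 10-fold dose, and the steepest positive that of RAD54L, at 0.16 ± 0.03. With the 3′ to 5′ ratio as a covariate, 0 of the 28 kept a slope in either direction. The share of all tested genes that kept one was not computed. The ratio was itself lower at the 2 highest doses (1.16 at 100 nM, 0.93 at 500 nM and 0.84 at 1000 nM). Dose and ratio therefore cannot be told apart in that fit. A difference among the 10 groups was called for 23 of the 28, where 71.4% of tested genes had one.

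In the core complex, FANCF, FANCC, FANCL and FANCE fell and FANCB rose, while FANCG and FANCM were not called. FANCF, an adaptor that holds the complex together, had intensities of 754, 801 and 779 in the 3 DMSO arrays, 712, 772 and 695 at 100 nM, 458, 465 and 570.1 at 500 nM and 279, 306 and 319.5 at 1000 nM. The 23 arrays at 100 nM or less and in DMSO ran from 654 to 957 with a median of 750, so every array at either high dose lay below all of them. The log2 change was -0.63 ± 0.08 at 500 nM (adjusted p 6.4e-07) and -1.33 ± 0.08 at 1000 nM (adjusted p 5.2e-13), a fall of 60.1% on the offset scale.

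FANCC, which joins FANCF and FANCE in a subcomplex, had intensities of 316, 319 and 339.9 in DMSO, 279, 316 and 291 at 100 nM, 207, 229.8 and 212 at 500 nM and 181, 142 and 203 at 1000 nM. All 6 arrays at the high doses lay below the other 23, which ran from 279 to 376. Its log2 change was -0.55 ± 0.09 at 500 nM and -0.85 ± 0.09 at 1000 nM (adjusted p 2.3e-05 and 1.5e-08). FANCL, the catalytic subunit, fell from 2142 ± 114 (SD, n = 3) in DMSO to 1709 ± 83.7 at 500 nM and 1667 ± 102 at 1000 nM, a log2 change of -0.36 ± 0.05 at the higher dose. FANCE fell to 1247 ± 82.7 and 1315 ± 55.3, with log2 changes of -0.33 and -0.25. Adjusted p for FANCL and FANCE ran from 3.3e-07 to 6e-05 at these doses.

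FANCB, a core subunit that pairs with FANCL, moved the other way at 1000 nM. Its brightest probe set read 133, 201 and 182.5 in DMSO, 205, 176 and 170.1 at 100 nM, 204, 234 and 209 at 500 nM and 369, 369 and 348 at 1000 nM. The 1000 nM arrays lay above the 23 arrays at 100 nM or less and in DMSO, which reached 231, and the log2 change was 1.02 ± 0.13 (adjusted p 1.9e-07). At 500 nM the change was 0.31 ± 0.13 with adjusted p 0.052, which became 0.017 without DMSO replicate 2, and 0.04 and 0.05 without 50 nM replicate 1 or 3 and 0.047 without 5 nM replicate 3. The other 3 FANCB probe sets were not called at 1000 nM against DMSO, at log2 changes of 0.15, 0.03 and -0.03. Within the treated arrays all 3 had a positive slope on log10 dose (0.13, 0.12 and 0.11, limma adjusted p 5.7e-05, 0.0014 and 0.0042). The brightest of the 3 averaged 158 in DMSO, 106 at 0.1 nM, 125 at 100 nM and 176 at 1000 nM. With its probe sets averaged, FANCB was called lower than DMSO at 0.1 nM (-0.37, adjusted p 0.03) and 10 nM (-0.35, adjusted p 0.048). FANCG stood at 659 ± 9.05 in DMSO and 683 ± 31.8 at 1000 nM, and the 95% interval of its log2 change ran from -0.12 to 0.22.

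The ubiquitin step showed a small rise and a fall. UBE2T had intensities of 2213, 2238 and 2356 in DMSO, 2277, 2327 and 2275 at 100 nM, 2765, 2185 and 2738 at 500 nM and 2695, 2721 and 2597 at 1000 nM. The 1000 nM arrays lay above the 23 arrays at 100 nM or less and in DMSO, and 500 nM replicates 1 and 3 lay higher still, while 500 nM replicate 2 lay below all DMSO arrays. The log2 change was 0.17 ± 0.06 at 500 nM (adjusted p 0.022) and 0.23 ± 0.06 at 1000 nM (adjusted p 0.0012). With the 3′ to 5′ ratio as a covariate the changes were -0.0031 and 0.0017, with adjusted p 0.98 and 0.99. The 500 nM call was lost without DMSO replicate 1 or 2 or without 500 nM replicate 1 or 3, at changes from 0.11 to 0.16. FANCI, the partner of FANCD2, averaged 1818 ± 42.4 in DMSO, 1740 ± 215 at 500 nM and 1376 ± 45.7 at 1000 nM. It fell at the higher dose by 0.40 ± 0.07 on the log2 scale (adjusted p 1.3e-05).

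All 3 measured genes of end trimming, NBN, MRE11 and RAD50, fell at 1000 nM. NBN, which recruits ATM to breaks, had intensities of 2171, 2262 and 1978 in DMSO, 2033, 1978 and 2049 at 100 nM, 1679, 1169 and 1976 at 500 nM and 1291, 1284 and 1427 at 1000 nM. At 500 nM the arrays spread widely and replicate 3 lay just below the lowest DMSO array, while at 1000 nM all 3 lay below the 23 arrays at 100 nM or less and in DMSO. The log2 change was -0.44 ± 0.10 at 500 nM and -0.67 ± 0.10 at 1000 nM (adjusted p 0.0013 and 4.3e-06). MRE11, the nuclease of the complex, fell from 1112 ± 12.1 to 926 ± 75.6 at 1000 nM (log2 change -0.26 ± 0.06, adjusted p 0.0002).

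RAD50, the ATPase that tethers the ends, had intensities of 938, 925 and 991 in DMSO, 977, 951 and 953 at 100 nM, 1213, 1243 and 964 at 500 nM and 754, 899 and 757 at 1000 nM. At 500 nM replicates 1 and 2 lay above DMSO and replicate 3 within it, and at 1000 nM all 3 lay below DMSO. The log2 change was 0.25 ± 0.08 at 500 nM (adjusted p 0.015) and -0.24 ± 0.08 at 1000 nM (adjusted p 0.013). The call at 500 nM was lost without DMSO replicate 2 or without 500 nM replicate 1 or 2, at changes from 0.18 to 0.23. That at 1000 nM was lost without DMSO replicate 3 or without 1000 nM replicate 1 or 3, at changes from -0.20 to -0.21. The difference between the 2 doses was -0.49 ± 0.08 (adjusted p 2.9e-05) and was called with each array left out in turn. The 3 RAD50 probe sets did not move alike at 500 nM: another was called lower (-0.27 ± 0.11, adjusted p 0.039) and the remaining one was at 0.01 ± 0.08.

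Among the BRCA complexes, BRCA1, BARD1, PALB2 and BRIP1 all fell at 1000 nM. BRCA1, a ubiquitin ligase with BARD1, had intensities of 1220, 1179 and 1218 in DMSO, 1143, 1158 and 1135 at 100 nM, 1069, 1010 and 1075 at 500 nM and 846, 964 and 925 at 1000 nM. Both high doses lay below the other 23 arrays, of which the lowest was 1120. The log2 change was -0.20 ± 0.06 at 500 nM and -0.40 ± 0.06 at 1000 nM (adjusted p 0.0065 and 1.1e-06). BARD1 fell from 2426 ± 104 to 1855 ± 346 at 500 nM and 1828 ± 38.5 at 1000 nM, with a log2 change of -0.40 ± 0.08 at each dose. PALB2, which links BRCA1 to BRCA2, averaged 560.1 ± 26.8 in DMSO, 509 ± 40.1 at 500 nM and 380.1 ± 16.9 at 1000 nM. It was called at 1000 nM, at -0.54 ± 0.07 (adjusted p 3.3e-07).

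BRIP1, a helicase bound to BRCA1, had intensities of 1163, 1188 and 1237 in DMSO, 1072, 1152 and 940 at 500 nM and 742, 738 and 830 at 1000 nM. The 1000 nM arrays lay below the 23 arrays at 100 nM or less and in DMSO, and the log2 change was -0.63 ± 0.07 (adjusted p 4.5e-08). At 500 nM it was -0.18 ± 0.07 (adjusted p 0.043), a call that was lost without any 1 of the DMSO arrays or without 500 nM replicate 1 or 3, at changes from -0.10 to -0.20. With the 3′ to 5′ ratio as a covariate it was 0.01.

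The genes that assist strand exchange did not move as a block. RAD54L and RAD54B encode related DNA translocases, and they moved in opposite directions. RAD54L had intensities of 343, 377 and 404 in DMSO, 401, 431 and 518 at 100 nM, 587, 565 and 512 at 500 nM and 712, 705 and 634 at 1000 nM. The 1000 nM arrays lay above the 23 arrays at 100 nM or less and in DMSO, which reached 518, and the log2 change was 0.55 ± 0.09 at 500 nM and 0.84 ± 0.09 at 1000 nM (adjusted p 3.3e-05 and 2.3e-08). RAD54B had intensities of 1405, 1617 and 1452 in DMSO, 1196, 1301 and 1178 at 100 nM, 931, 827 and 1140 at 500 nM and 777, 703 and 763 at 1000 nM. Its 1000 nM arrays lay below the 23 arrays at 100 nM or less and in DMSO, the lowest of which was 997, and the log2 change was -0.63 ± 0.10 and -0.98 ± 0.10 (adjusted p 5.6e-06 and 1.8e-09). RAD54B changes against DMSO were negative at all 9 doses, from -0.11 at 5 nM, and the 0.1 to 100 nM changes did not pass the test in the main fit. The change at 0.5 nM (-0.47) was called lower without 500 nM replicate 2 or 3 (adjusted p 0.043 and 0.032). That at 100 nM was called lower with the 3′ to 5′ ratio as a covariate (-0.30, adjusted p 0.043).

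RAD51D, which forms a complex with RAD51C and XRCC2, had intensities of 118, 157 and 138 in DMSO, 120.4, 130.2 and 113 at 100 nM, 87.5, 101 and 107 at 500 nM and 60.8, 77.2 and 80.5 at 1000 nM. All 6 arrays at the high doses lay below the other 23, and the log2 change was -0.42 ± 0.11 and -0.79 ± 0.11 (adjusted p 0.0024 and 5.8e-07). The call at 500 nM was lost with only 500 nM and DMSO in the fit (adjusted p 0.053). A dimmer RAD51D probe set was not called at 500 nM (-0.20) and was lower at 1000 nM (-0.38). RAD51C, which also pairs with XRCC3, had intensities of 3728, 3685 and 3681 in DMSO, 3544, 3425 and 3525 at 500 nM and 2424, 2601 and 2519 at 1000 nM. The step came between the 2 highest doses: the log2 change was -0.08 ± 0.04 at 500 nM (adjusted p 0.097) and -0.55 ± 0.04 at 1000 nM (adjusted p 4.4e-12).

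RAD52, a strand-annealing protein, had intensities of 1026, 1118 and 1066 in DMSO, 949, 1026 and 1028 at 100 nM, 1216, 1033 and 1241 at 500 nM and 567, 669.6 and 630 at 1000 nM. The 500 nM arrays overlapped DMSO and the 1000 nM arrays lay below all others. The log2 change was 0.11 ± 0.10 at 500 nM (adjusted p 0.35) and -0.77 ± 0.10 at 1000 nM (adjusted p 1.7e-07). XRCC2 was read by a probe set whose suffix marks possible matches to other transcripts, with intensities of 362, 137 and 137 in DMSO and 138, 98.3 and 109 at 500 nM. The groups overlapped, and its call at 500 nM (-0.67 ± 0.25, adjusted p 0.032) was lost without DMSO replicate 1 (-0.24, adjusted p 0.4) or without 500 nM replicate 2 or 3 (-0.58 and -0.64). XRCC3 had a log2 change of -0.12 at 1000 nM, with a 95% interval from -0.37 to 0.13.

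**Figure D2:**
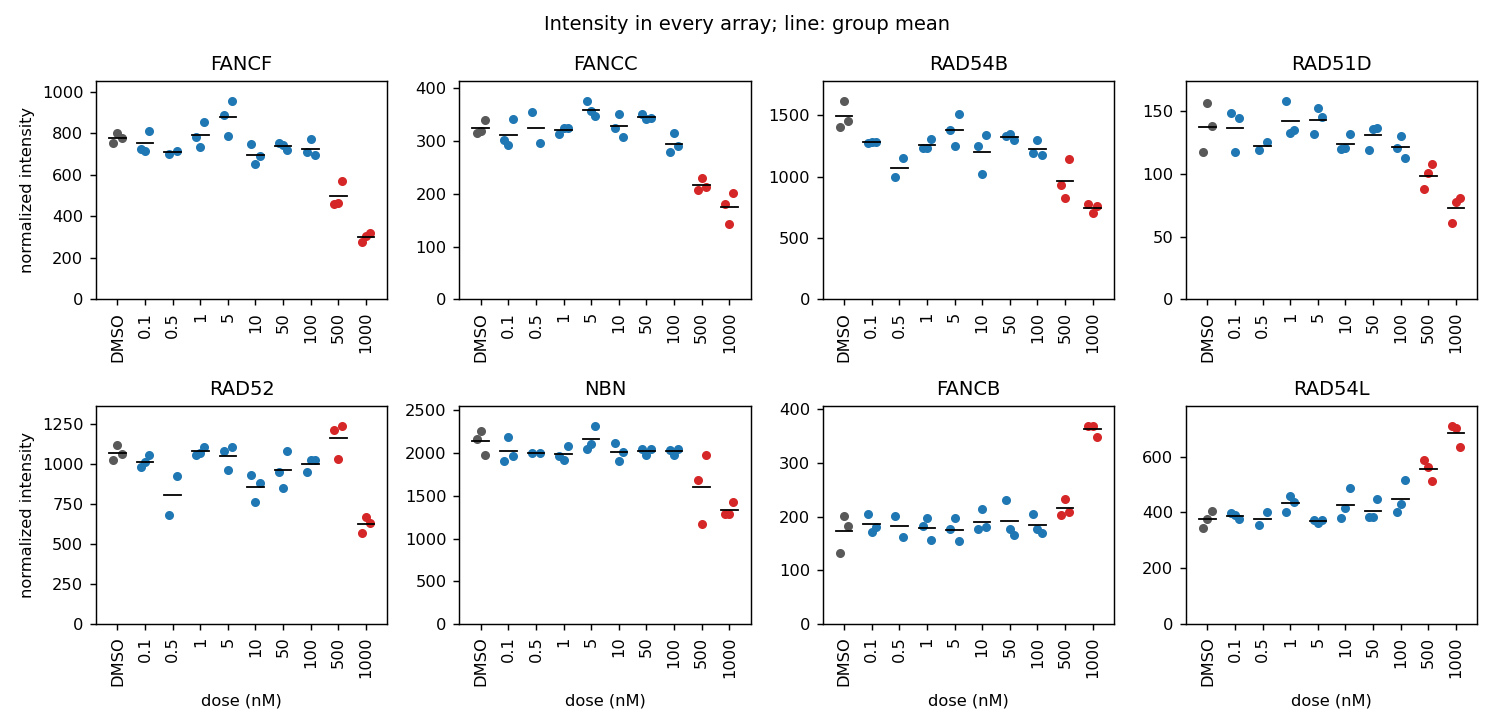
Normalized intensity in every array (points) and group mean (line) for 8 genes over DMSO (grey), 0.1 to 100 nM (blue) and 500 and 1000 nM (red). FANCF, FANCC, RAD54B, RAD51D and NBN are lower at 500 and 1000 nM, RAD52 is lower at 1000 nM, and FANCB and RAD54L are highest at 1000 nM.

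Of the helicases and nucleases, WRN, EME1 and MUS81 fell at 1000 nM, and BLM and SLX4 were not called. WRN, the Werner syndrome helicase, went from 973 ± 47.4 in DMSO to 800 ± 46.5 at 500 nM and 666 ± 65.5 at 1000 nM, a log2 change of -0.28 ± 0.06 and -0.54 ± 0.06 (adjusted p 0.00081 and 5.1e-08). EME1, the partner of the MUS81 nuclease, went from 6719 ± 60.6 to 5835 ± 445 and 5619 ± 192, a log2 change of -0.21 ± 0.05 and -0.26 ± 0.05 (adjusted p 0.001 and 4.9e-05). MUS81 was at 666 ± 54.9 in DMSO and 560 ± 35.8 at 1000 nM (-0.24 ± 0.09, adjusted p 0.027), a call lost without DMSO replicate 3 (-0.18) or without 1000 nM replicate 3 (-0.19), and at 0.07 with the 3′ to 5′ ratio as a covariate. BLM, the Bloom syndrome helicase, averaged 1303 ± 56.8 in DMSO and 1309.6 ± 55.3 at 1000 nM, and the 95% interval of its log2 change ran from -0.12 to 0.13. At 500 nM its change was -0.14 ± 0.06 (adjusted p 0.068), which was called without DMSO replicate 1 (-0.18) or without 500 nM replicate 2 (-0.21). SLX4, a scaffold for nucleases, had an interval from -0.27 to 0.08.

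Read without a test, all 3 arrays at 1000 nM lay below the 3 DMSO arrays for 20 of the 28 genes and above them for 3, where 38.5% and 30.4% of tested genes did. At 500 nM the counts were 14 and 3, where 23.8% and 23.7% did. At 1000 nM all 3 arrays lay below the 23 arrays at 100 nM or less and in DMSO for 15 of the 28 genes and above them for 3, where 29.5% and 19.1% of tested genes did. At 500 nM this held for 7 genes below and 0 above, where 14.2% and 12.3% did. The 7 were FANCC, FANCF, FANCL, BRCA1, RAD51D, WRN and EME1.

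The 2 highest doses were also compared directly, without the DMSO arrays. At 1000 nM, 16 of the 28 were lower than at 500 nM and 2 higher (limma, adjusted p 0.05), where 31.8% of tested genes were lower and 15.4% higher. The largest differences were RAD52 at -0.88 ± 0.10 (adjusted p 7.9e-08), FANCF at -0.69 ± 0.08, RAD50 at -0.49 ± 0.08 and RAD51C at -0.47 ± 0.04. BRIP1 was at -0.44 ± 0.07 and PALB2 at -0.40 ± 0.07. FANCB (0.71 ± 0.13) and RAD54L (0.29 ± 0.09) were higher. Single arrays decided some of the smaller differences: RAD51D, RAD54L, SLX4 and MRE11 lost their call without 1000 nM replicate 1, FANCC and FANCM without 1000 nM replicate 2, MUS81 without 1000 nM replicate 3, MUS81 and SLX4 without 500 nM replicate 2, and MRE11 and RAD54L without 500 nM replicate 3. For 10 genes no difference was called. Among them the 95% interval was -0.13 to 0.06 for FANCL, -0.15 to 0.05 for EME1, -0.17 to 0.17 for BARD1 and -0.02 to 0.18 for FANCE. These 4 genes were lower than DMSO at both doses. With a gene's probe sets averaged, EME1 (-0.19, adjusted p 0.017) and BARD1 (-0.25, adjusted p 0.029) were called lower at 1000 than at 500 nM, outside those intervals. Under that choice BRCA1 (-0.12), FANCI (-0.10) and FANCM (0.00079) lost their call, and BLM was called higher (0.15, adjusted p 0.045). With the 3′ to 5′ ratio as a covariate, RAD54L (0.24), MUS81 (-0.21) and FANCM (-0.21) lost theirs. In that fit NBN was called lower (-0.33) and BLM higher (0.21). Without 500 nM replicate 2, whose BARD1 (1459) and NBN (1169) values were the lowest of any array, BARD1 differed by -0.17 (adjusted p 0.019) and NBN by -0.45 (adjusted p 1.7e-05). Without that array FANCE was higher by 0.13 (adjusted p 0.025) and BLM by 0.21, so that 4 genes in all were higher. Without 500 nM replicate 3, EME1 was lower by -0.11 (adjusted p 0.049).

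**Figure D3:**
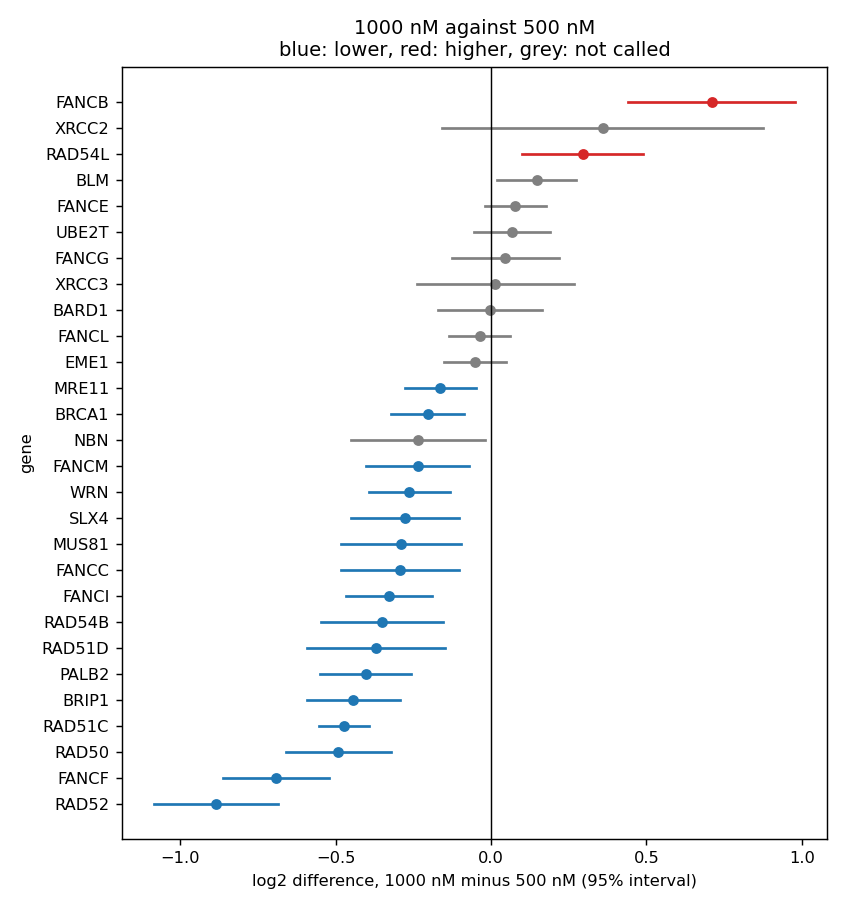
Log2 difference between 1000 and 500 nM for each of the 28 genes, with its 95% interval (limma), in order of size. RAD52 and FANCF lie furthest to the left, FANCB furthest to the right, and intervals of FANCL, EME1, BARD1 and FANCE include 0.

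Probe sets of the same gene were compared where several passed the level minimum, which 13 of the 28 genes had. At 1000 nM, every tested probe set was lower for 6 of the 13 genes: FANCF, NBN, BRCA1, BRIP1, RAD51D and EME1. For 4 others, RAD50, BARD1, RAD51C and RAD52, some were lower and the rest not called, and for FANCB 1 of 4 was higher. FANCI had probe sets called in both directions. FANCM had 1 called lower, and another that was higher but passed the level minimum only through the high doses, so its call is not read as a result. At 500 nM RAD50 had probe sets called in both directions. FANCI, beside the fall of its 2 brighter probe sets, had a dimmer one at 339, 393 and 400.2 in DMSO, 366, 406 and 370.5 at 500 nM and 573, 474 and 473 at 1000 nM, a log2 change of 0.41 ± 0.09 (adjusted p 0.00045).

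FANCM, the translocase that anchors the core complex to DNA, had a brightest probe set at 284 ± 2.98 in DMSO and 259 ± 14.2 at 1000 nM, which was not called (-0.13 ± 0.08, adjusted p 0.18). Another tested probe set of FANCM was at 37.0, 36.1 and 34.9 in DMSO, below the level minimum of 37.4, and at 57.8, 72.2 and 60.3 at 500 nM and 149.8, 98.9 and 110.1 at 1000 nM. Its group means at 0.1 to 100 nM ran from 27.0 (5 nM) to 40.2 (10 nM), so it passed the minimum through the 2 high doses and its rise is given as values without a test. Detection calls were not used here. A further FANCM probe set fell by 0.32 ± 0.11 at 1000 nM.

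Other probe sets also differed in the size of a change. In FANCF the dimmer probe set fell by 0.55 ± 0.09 at 1000 nM, where the brighter fell by 1.33 ± 0.08. Log2 changes at 1000 nM ran from -0.67 to -0.20 over the tested NBN probe sets. In RAD51C they were -0.55 for the brighter and -0.08 for the dimmer. In BARD1 a dimmer probe set went from 512, 508 and 573 in DMSO to 388, 327 and 490 at 500 nM and 259, 257 and 268 at 1000 nM, a fall of 0.98 ± 0.10 on the log2 scale, and another was not called (-0.11 ± 0.16). In RAD52 a dimmer probe set rose at 500 nM by 0.72 ± 0.13 (adjusted p 3.7e-05) and was not called at 1000 nM (-0.18 ± 0.13). With a gene's tested probe sets averaged in place of the brightest, 18 genes were lower at 1000 nM and 4 higher. The 4 include FANCM, through its dimmest tested probe set. That probe set passed the level minimum only through the high doses, so the FANCM call is not read as a result. FANCI lost its call (-0.08), and RAD52 was called higher at 500 nM (0.30, adjusted p 0.00013). RAD50 lost its rise at 500 nM under that choice (-0.0028, adjusted p 0.97).

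**Figure D4:**
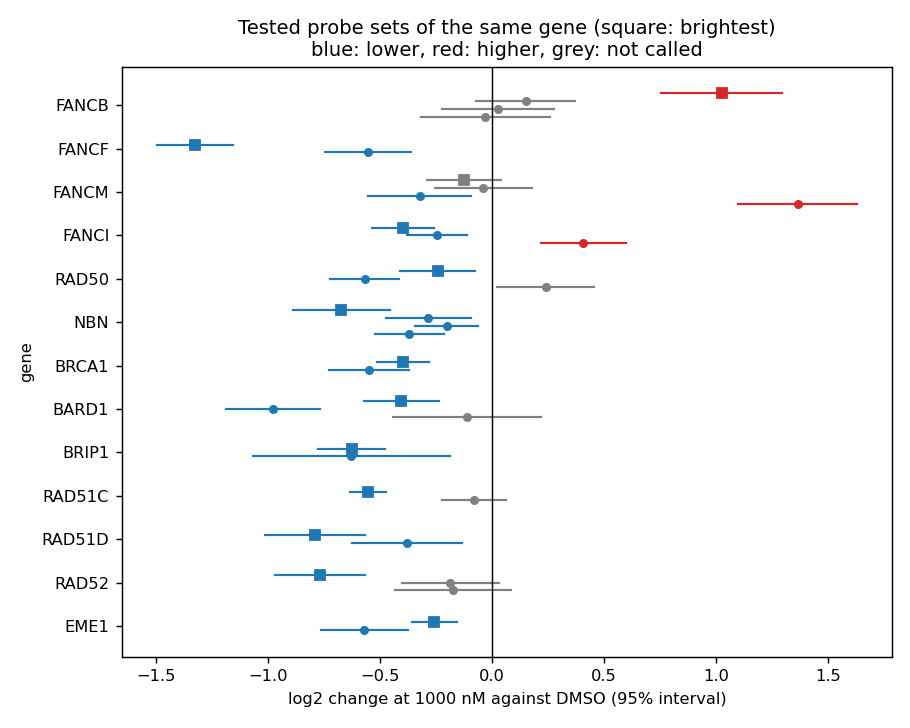
Log2 change at 1000 nM against DMSO with its 95% interval for every tested probe set of the 13 genes with several (square, brightest; circle, other). Blue is called lower, red higher and grey not called. FANCM and FANCI have both blue and red probe sets, and the red one of FANCM passed the level minimum only through the high doses.

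Other genes of these pathways are given beside the 35.8% lower and 27.3% higher among all tested genes at 1000 nM. The lists can share genes: the further Fanconi and recombination list and the end joining list had the same median at 500 nM (0.0081). Of 49 further Fanconi and homologous recombination genes, 47 were tested, 18 of which were lower and 12 higher, with a median log2 change of -0.05. The largest falls were those of RAD51B, which forms a complex with RAD51C and RAD51D (-2.49 ± 0.14), BABAM2 (-1.21 ± 0.09) and RMI2, a partner of BLM (-0.87 ± 0.07). The largest rises were those of FEN1, the flap nuclease (0.87 ± 0.06), RECQL4, a helicase (0.68 ± 0.12), and HROB (0.62 ± 0.09). Of 21 tested end joining genes, 9 were lower and 2 higher (median -0.11), with XRCC4, the partner of DNA ligase IV, at -1.32 ± 0.06 and SHLD1 of the shieldin complex at -1.25 ± 0.10. The small rises were XRCC6 at 0.20 ± 0.03 and XRCC5 at 0.13 ± 0.04, the 2 subunits of Ku. Of the 39 tested DNA replication and G1/S genes, 11 were lower and 17 higher at 1000 nM (median 0.06). Of the 37 G2/M and mitosis genes, 21 were lower and 8 higher (median -0.18). Of the 26 tested p53 target genes, 0 were lower and 23 higher (median 0.66), among them CDKN1A at 0.53 ± 0.05. The part of cell cycle position in the values of the 28 genes was not tested.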

How the data were processed

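Triplicate cultures at about 70% confluence were exposed, per the labels' protocols; RNA came from a kit that also yields DNA, and NuGEN Ovation turned 40 ng of it into biotin-labelled cDNA. GCOS is the software named by the submitters' processing notes, without a version, and the sources used here do not give the normalization. Each deposited value is a linear intensity of a probe set, and array medians (35.8 to 38.4) were already alike as the authors deposited them.

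Values were log2(intensity + 16). Probe sets without controls and with a mean at or above the median (log2 5.74) were tested, 27307 in all. A single limma fit with a mean per group, a mean-variance trend and 19 residual degrees of freedom gave every comparison, two-sided. Benjamini-Hochberg adjustment ran over all tested probe sets. The slope on log10 dose was a separate limma fit. SE are from limma and SD are over arrays; the number of arrays limits the precision. Fully described genes were the 6 largest falls and up to 6 largest rises called at either high dose, with BRCA1 always. Other members are given more briefly, with array values of some groups for FANCE, BRIP1, RAD51C and XRCC2. From the further Fanconi and recombination list and the end joining list, up to 3 falls and 3 rises were named by size. CDKN1A was named as the reference of the p53 list, and no gene of the replication and mitosis lists was named. R 4.3.3, limma 3.58.1 and matplotlib 3.10.9 were used. The members and lists were chosen with earlier results of these data known.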

Additional observations from a re-analysis of the deposited data

How the results depend on the processing

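Leaving out each array in turn gave 17 to 19 genes lower and 3 to 3 higher at 1000 nM, and 11 to 13 lower and 1 to 4 higher at 500 nM. It gave medians of -0.38 to -0.31 and -0.19 to -0.10, 13 to 16 lower and 1 to 4 higher at 1000 against 500 nM, and 0 to 4 called at 100 nM or less. The count at 100 nM or less rose to 4 without 500 nM replicate 2 and 3 without 500 nM replicate 3. RAD54B at 0.5 nM and BLM at 100 nM were added in both, and BARD1 at 100 nM without replicate 2. That count was 0 with median centring and with no mean-variance trend, and 2 with a gene's probe sets averaged and with the 3′ to 5′ covariate. With that covariate the median at 1000 nM was -0.24, 8 genes were lower at 500 nM, and 0 had a negative and 0 a positive slope. UBE2T at 500 nM (-0.0031), RAD50 at 1000 nM (0.028), BRIP1 at 500 nM (0.01) and MUS81 at 1000 nM (0.07) changed sign there, and RAD50 at 500 nM (-0.0028) with probe sets averaged. The cause was not tested. Testing only the upper 25% of mean level left 23 genes, a median of -0.40 and 1 gene higher at 1000 against 500 nM. With only 500 nM and DMSO in the fit, which has fewer arrays, 8 were lower and 1 higher at 500 nM. Against the mean of 0.1, 0.5 and 1 nM, 6 were higher at 500 nM. For these changed fits the shares of all tested genes called were not computed. A minimum of 1.5-fold left 7 lower at 1000 nM, and 3 lower and 0 higher at 500 nM.

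Replicate numbers did not pair the arrays as a whole. Deviations of the 126 same-numbered pairs correlated at -0.52 to 0.75 (median 0.01), with 37 of them over 0.1. The 252 different-numbered pairs correlated at -0.62 to 0.50 (median -0.02). Of 29 arrays, 10 correlated best with their own number. Pairing between some of the groups was not tested. With the replicate block, 19 genes were lower at 1000 nM and 13 at 500 nM, and 3 and 4 were higher; FANCB was then called at 500 nM (0.31, adjusted p 0.04). Offsets of 1 and 64, quantile normalization and no level filter gave 19 lower at 1000 nM and 11 to 14 at 500 nM.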
